A study of Mus musculus with 6 samples.

Results

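The 10 genes described here encode or control the molecules that display peptides to T cells: Cd74, H2-Aa, H2-Ab1, H2-Eb1 and Ciita of the MHC class II pathway, and H2-K1, H2-D1, B2m, Tap1 and Tap2 of the class I pathway. They were selected by name out of 49315 genes in the count files, and the set was chosen on an earlier look at the same data in which Cd74 was high in ING4-/- LT-HSCs, with the question of whether the class II genes follow. Cd74 in the LT-HSC libraries is therefore given as a description with no test. The data were bulk RNA-seq counts from 6 libraries, 1 each for long-term hematopoietic stem cells (LT-HSCs), short-term hematopoietic stem cells (ST-HSCs) and multipotent progenitors (MPPs) of WT mice and of ING4-deficient mice (ING4-/-). Marrow from 8 to 10 mice per genotype was pooled, depleted of lineage-positive cells and sorted by the study's gates as LSK (lineage-negative, Sca1+ cKit+) CD48- cells that were CD34- CD150+ (LT-HSCs), CD34+ CD150+ (ST-HSCs) or CD34+ CD150- (MPPs). The labels give no treatment and no age. On GRCm38 the genes of the set on chromosome 17 are H2-K1 (chr17:33996017-34000333), Tap1 (chr17:34187553-34197225), Tap2 (chr17:34203527-34216321), H2-Ab1 (chr17:34263209-34269418), H2-Aa (chr17:34282744-34287827), H2-Eb1 (chr17:34305877-34316199) and H2-D1 (chr17:35262730-35267499), with Ciita at chr16:10488178-10527564 and B2m at chr2:122147686-122153083. Counts are over the exons of each gene. In the comparison of genotypes the 3 populations stood in for replicates, so the spread within a genotype includes the difference between populations, and no population had a second library of either genotype.

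MHC class II molecules are pairs of an alpha and a beta chain (H2-Aa with H2-Ab1 for I-A, and H2-Eb1 as the beta chain of I-E) that present peptides from endosomes to CD4 T cells. CD74, the invariant chain, holds new class II dimers together, fills their groove and carries them to endosomes, and it is also a surface receptor for the cytokine MIF. CIITA is the transactivator on which class II transcription depends, working through factors bound to the X and Y boxes of these promoters. Class I molecules pair a heavy chain (H2-K1, H2-D1) with beta-2 microglobulin (B2m) and present peptides from the proteasome to CD8 T cells, after the TAP1-TAP2 transporter has moved those peptides into the endoplasmic reticulum. Most nucleated cells carry class I, whereas class II is best known on dendritic cells, B cells and macrophages.

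Promoter sequence helps to place the members, since class I and class II genes are known to share box elements close to their start sites. For 6 of the 10 members a RefSeq promoter on GRCm38.p6 was searched on both strands for the Y box core ATTGG, the X2 box core TGACG and the kappaB core GGGGATTCC in the 180 bases before the start, and 5 are shown with these letters in capitals, or their reverse complement where the match is on the other strand. They lie at chr17:34287824-34288003 (minus strand) for H2-Aa, chr17:34305687-34305866 (plus strand) for H2-Eb1, chr17:34000348-34000527 (minus strand, 1 of 2 starts in the table) for H2-K1, chr17:35262914-35263093 (plus strand) for H2-D1 and chr2:122147507-122147686 (plus strand) for B2m.
H2-Aa: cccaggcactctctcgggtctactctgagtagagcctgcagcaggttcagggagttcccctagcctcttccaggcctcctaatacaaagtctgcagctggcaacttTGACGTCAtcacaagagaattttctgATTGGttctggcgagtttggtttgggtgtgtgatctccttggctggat
H2-Eb1: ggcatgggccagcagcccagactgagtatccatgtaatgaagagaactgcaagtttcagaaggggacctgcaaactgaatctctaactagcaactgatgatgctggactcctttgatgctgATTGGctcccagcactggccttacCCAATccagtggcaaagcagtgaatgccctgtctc
H2-K1: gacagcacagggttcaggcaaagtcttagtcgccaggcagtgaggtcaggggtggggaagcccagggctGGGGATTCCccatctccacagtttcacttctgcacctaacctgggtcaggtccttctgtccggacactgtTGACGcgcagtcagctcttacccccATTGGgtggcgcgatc
H2-D1: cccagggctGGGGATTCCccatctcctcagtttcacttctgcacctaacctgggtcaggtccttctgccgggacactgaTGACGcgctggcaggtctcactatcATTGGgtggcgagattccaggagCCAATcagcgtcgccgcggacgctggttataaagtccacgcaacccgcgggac
B2m: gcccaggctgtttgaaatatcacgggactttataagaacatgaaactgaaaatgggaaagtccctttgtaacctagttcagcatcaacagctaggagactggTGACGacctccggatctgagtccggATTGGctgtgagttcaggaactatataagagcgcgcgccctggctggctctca
The Y box core was found 53 to 49 bases before the B2m start with the X2 core at 78 to 74 bases, an order also seen in H2-K1 (16 to 12 and 41 to 37), in H2-D1 (76 to 72 and 101 to 97) and in H2-Aa (48 to 44 and 74 to 70). In H2-Aa the X2 core also matched on the reverse strand at 71 to 67 bases, overlapping the forward match. H2-D1 held a second Y core on the reverse strand at 53 to 49 bases, and H2-Eb1 held Y cores at 59 to 55 and, in reverse, at 35 to 31 bases, with no TGACG in its window. Tap1 held TGACG at 86 to 82 bases. The kappaB core was present in H2-K1 at 111 to 103 bases and in H2-D1 at 171 to 163 bases. For scale, among the same 180-base windows of 32851 promoters, 27.5% held ATTGG, 14.8% held TGACG, 4.41% held both and 0.143% held GGGGATTCC, so the short cores are common letters and a match describes sequence only.

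The WT libraries held 7839326 (LT-HSC), 8047002 (ST-HSC) and 9363442 (MPP) counts and the ING4-/- libraries 35596876, 37811937 and 39192588. The WT libraries also carried a background spread over genes in proportion to exonic length, measured on 1429 protein-coding olfactory and vomeronasal receptor genes, which blood cells are not expected to express: 18.1 to 22.7 counts per kb of exon, against at most 0.0853 in the ING4-/- libraries. Such a density over all genes would make up 22.6% to 33.4% of WT counts. Depth and background move with genotype and cannot be told apart from it. In LT-HSC, ST-HSC and MPP order, the order used throughout, the libraries held 247, 162 and 247 Ing4 counts in WT and 0, 24 and 76 in ING4-/- (log2 fold change -4.49 ± 1.56 SE, edgeR quasi-likelihood test, adjusted p = 0.0373), which is the direction of the labels. Values below are counts, or CPM (counts per library total, scaled by the TMM method). A gene was called when the Benjamini-Hochberg adjusted p over all genes tested was under 0.05 and the log2 fold change was beyond 1 in either direction.

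Among the 10 genes, Cd74 had the widest range of CPM in the ING4-/- libraries relative to its mean. Its WT counts were 341, 277 and 299 (35.9, 29.8 and 29.3 CPM), and its ING4-/- counts 6865, 1270 and 1875 (219, 40.2 and 55.3 CPM). All 3 ING4-/- libraries lay above all 3 WT libraries, and the ING4-/- LT-HSC library stood far above the other 5. Within populations the log2 ratio of ING4-/- to WT was 2.61, 0.43 and 0.91. The 9673 genes that no library left under 10 counts, called well-counted genes here, had median ratios of 0.55, 0.59 and 0.37 in the same order, and 95.9%, 45.2% and 71.4% of them lay below Cd74. Thus the ST-HSC ratio was under the median of these genes and the MPP ratio above it. The fitted log2 fold change over 6 libraries was 1.73 ± 0.65 (SE), and 0.62 without the ING4-/- LT-HSC library. In the ST-HSC and MPP libraries alone, which the choice of genes did not use, it was 0.73 ± 0.38 (SE, edgeR quasi-likelihood test, adjusted p = 0.141) and was not called. Over the alternative settings of that fit the adjusted p ran from 0.00861 (upper-quartile scaling) to 0.966.

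**Figure D1:**
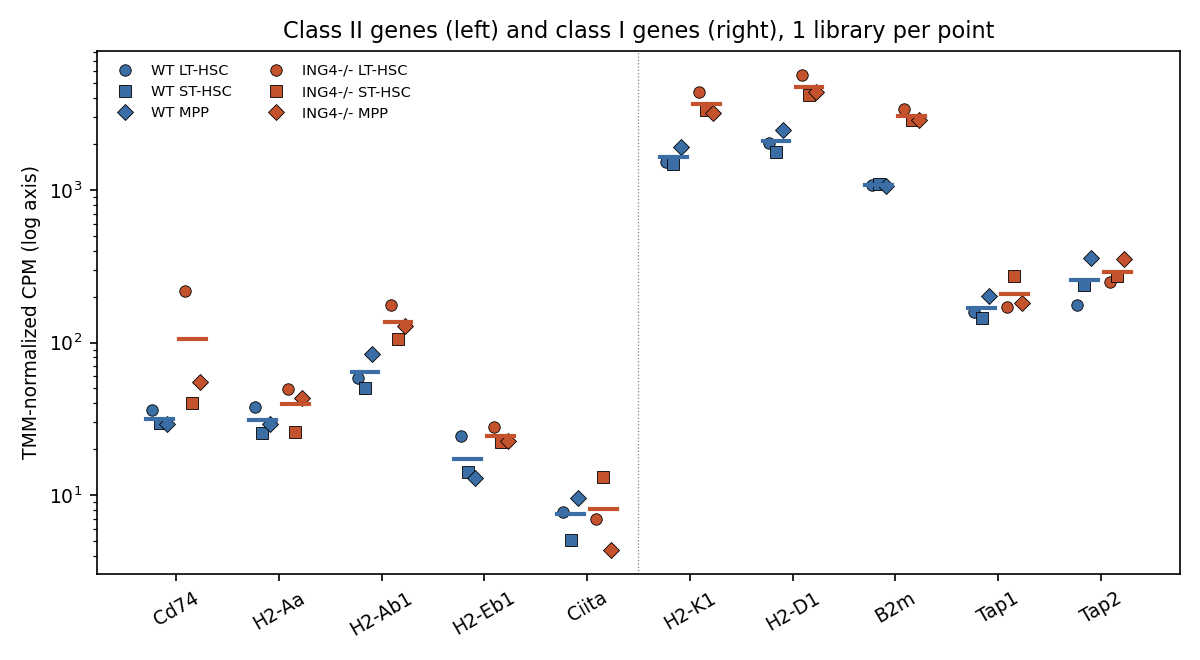
TMM-normalized CPM of the 10 genes on a log axis, with 1 point per library (WT blue, ING4-/- red; circle LT-HSC, square ST-HSC, diamond MPP) and a bar at the mean of 3 libraries. The Cd74 point of the ING4-/- LT-HSC library (219 CPM) stands apart. For Cd74, H2-Ab1, H2-K1, H2-D1 and B2m all 3 ING4-/- points lie above all 3 WT points.

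The class II chain genes did not all follow Cd74. H2-Ab1, the I-A beta chain, had 559, 468 and 853 counts in the WT libraries and 5493, 3359 and 4370 in the ING4-/- libraries. The groups did not overlap in CPM (50.4 to 83.7 against 106 to 176), and the gene was called higher, at 1.09 ± 0.30 (SE, edgeR quasi-likelihood test, adjusted p = 0.0145). Its log2 ratio was 1.57, 1.07 and 0.62. The call was lost under 7 of 14 alternative settings, for instance with DESeq2 size factors (0.76, adjusted p = 0.0508) and without the WT ST-HSC library (0.92, adjusted p = 0.0665).

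H2-Aa, the partner alpha chain, had 359, 237 and 299 counts in WT and 1558, 820 and 1459 in ING4-/- libraries. In CPM the groups overlapped (25.5 to 37.8 against 25.9 to 49.8), and the difference of 0.36 ± 0.39 (SE, edgeR, adjusted p = 0.461) was not called. H2-Eb1 had 230, 132 and 132 counts in WT and 877, 704 and 768 in ING4-/- libraries. Its groups overlapped as well (13.0 to 24.2 against 22.3 to 28.0 CPM), and the difference of 0.51 ± 0.46 (SE, edgeR, adjusted p = 0.378) was not called. The LT-HSC log2 ratios of H2-Aa (0.40) and H2-Eb1 (0.21) were below the median of 0.55, in the population in which Cd74 reached 2.61.

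Counts per kb of exon within a library do not depend on scaling between libraries. The ratios to Cd74 are built on the value by which the set was chosen and are given as a description. The ratio of Cd74 to H2-Aa was 1.26, 1.55 and 1.33 in the WT libraries, 5.86 in the ING4-/- LT-HSC library, and 2.06 and 1.71 in the ING4-/- ST-HSC and MPP libraries. The ratio of Cd74 to H2-Eb1 was 1.25, 1.76 and 1.90 in WT, then 6.57, 1.51 and 2.05. The ratio of Cd74 to H2-Ab1 was 0.708, 0.687 and 0.407 in WT, then 1.45, 0.439 and 0.498. Against the sum of the 3 chain genes Cd74 stood at 0.268 to 0.375 in the WT libraries, at 0.988 in the ING4-/- LT-HSC library, and at 0.292 and 0.325 in the other ING4-/- libraries. Apart from the ING4-/- LT-HSC library, the 2 genotypes overlapped in this summed ratio. With the background taken off, the WT values were 0.263 to 0.381 and the ING4-/- LT-HSC value 0.988. These ratios rest on 1 library per population and genotype, and no test was made.

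**Figure D2:**
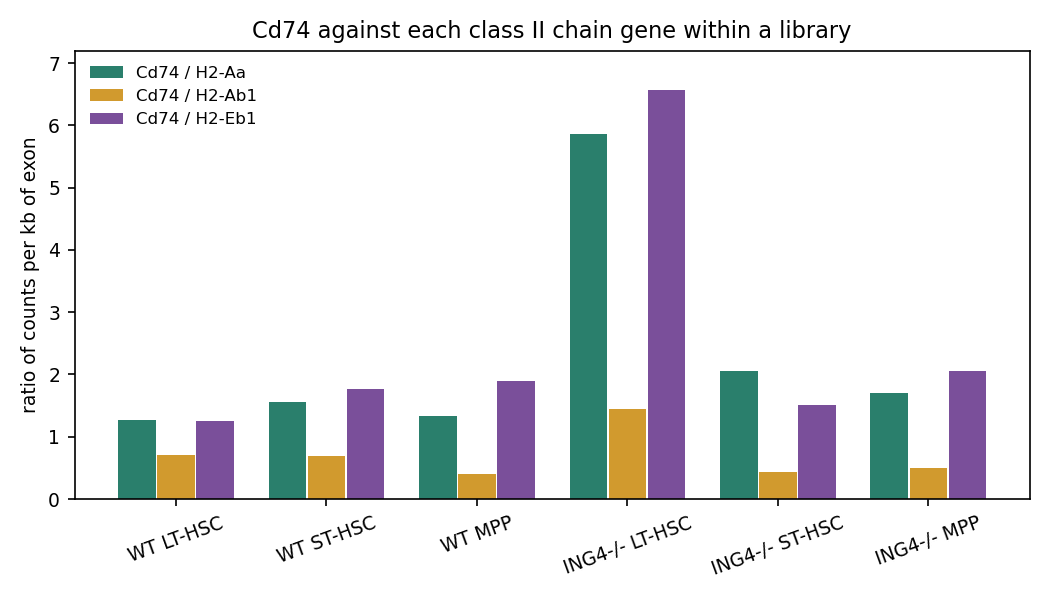
Ratio of Cd74 to each class II chain gene, in counts per kb of exon, within each of the 6 libraries (bars, 1 library each). Cd74 over H2-Aa and over H2-Eb1 reaches 5.86 and 6.57 in the ING4-/- LT-HSC library, and stays between 1.25 and 2.06 in the other 5.

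Ciita was at a low level in every library. It had 74, 47 and 98 counts in WT, where the background alone would give 118, 119 and 95.1 counts over its 5254 exonic bases, so its WT level was not distinguishable from background. In the ING4-/- libraries, where the background is under 1 count, it had 218, 416 and 148 counts (6.97, 13.2 and 4.36 CPM). The 6 libraries gave no call (0.12 ± 0.63 SE, edgeR, adjusted p = 0.881). With the background taken off, Ciita was called higher, at a fitted log2 value of 5.53 over 6 libraries (edgeR, adjusted p = 0.0171) and 5.07 over ST-HSCs and MPPs (adjusted p = 0.0488), but the subtracted WT counts were then at or under the floor of 3, so these values depend on the prior count and are not fold changes. Among ING4-/- libraries, Ciita was highest in ST-HSCs, where Cd74 was lowest.

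H2-K1, H2-D1 and B2m of the class I pathway rose in the comparison over 3 populations, while Tap1 and Tap2 were not called. B2m, the light chain shared by class I molecules, had 10314, 10166 and 10867 counts in WT and 107037, 91199 and 97386 in ING4-/- libraries. That is 1082 ± 14.5 CPM in WT and 3058 ± 313 in ING4-/- (mean ± SD, n = 3 each), with no overlap. Its log2 fold change was 1.50 ± 0.12 (SE, edgeR quasi-likelihood test, adjusted p = 0.000657), and the adjusted p stayed between 2.25e-05 and 0.00903 over the alternative settings. H2-D1, a classical heavy chain, had 19188, 16513 and 25348 counts in WT and 179163, 133382 and 148134 in ING4-/- libraries, and rose by 1.19 ± 0.18 (SE, adjusted p = 0.000862 in edgeR). H2-K1, the other classical heavy chain, had 14562, 13863 and 19423 counts in WT and 138560, 105191 and 109001 in ING4-/- libraries, and rose by 1.15 ± 0.17 (SE, adjusted p = 0.000835 in edgeR). Neither heavy chain gene overlapped between genotypes in CPM (H2-K1 1493 to 1906 against 3213 to 4427, H2-D1 1778 to 2487 against 4218 to 5724).

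Of the 9 members tested over 6 libraries, 4 were called higher (H2-Ab1, H2-K1, H2-D1 and B2m) and 0 lower, at the adjusted threshold of the edgeR test. Over all 31001 genes tested 64.6% were called, 7.98% higher and 56.7% lower, with a median log2 fold change of -6.85. Among the 9673 well-counted genes, fitted alone, 8.3% were called higher. In that fit 0 of the 9 members were called by edgeR, with 3 under an unadjusted p of 0.05 and the same number under an adjusted p of 0.05, and B2m came to 0.99, H2-D1 to 0.69 and H2-K1 to 0.66. DESeq2 called 1 member (B2m) over all genes. With the background taken off each library, none of the 4 called members stayed past the fold threshold, and the 1 call was Ciita. H2-Ab1 came to 0.38 (adjusted p = 0.361), H2-K1 and H2-D1 came to 0.35 (adjusted p = 0.126) and 0.39 (adjusted p = 0.0954), and B2m to 0.68 (adjusted p = 0.00382).

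In the ST-HSC and MPP libraries alone, 2 of the 10 members were called higher, against 7.42% of all genes tested: B2m at 1.45 ± 0.14 (SE, edgeR, adjusted p = 0.00177) and H2-D1 at 1.05 ± 0.20 (adjusted p = 0.00403). H2-K1 reached 0.98 ± 0.18 (SE, edgeR, adjusted p = 0.00325), just under the fold threshold. H2-Ab1 was at 0.85 (edgeR, adjusted p = 0.0657), H2-Eb1 at 0.76 (adjusted p = 0.245) and H2-Aa at 0.37 (adjusted p = 0.516). With population as a block, 0 members were called in edgeR (4 had an unadjusted p under 0.05), with B2m at an adjusted p of 0.0544 and H2-D1 at 0.0631. Without the WT ST-HSC or without the WT MPP library 0 were called as well, with 3 under an unadjusted p of 0.05 in each case, whereas DESeq2 on all 4 libraries called 1.

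The log2 ratio was above 0 in all 3 populations for Cd74, by which the set was chosen, and for 6 of the other 9 members, against 15% of all genes tested and 44.7% of well-counted genes. The exceptions were Ciita (-0.16, 1.36 and -1.12), Tap1 (0.09, 0.94 and -0.15) and Tap2 (0.49, 0.20 and -0.03). With DESeq2 size factors, 4 of the 7 genes stayed above 0 in all populations: H2-Ab1, H2-K1, H2-D1 and B2m. With the background taken off the count was also 4, but it held Ciita, not one of the 7, beside H2-K1, H2-D1 and B2m. H2-Ab1 was then at -0.04 in MPPs. Cd74 in ST-HSCs was at -0.03 with DESeq2 size factors and -0.35 with the background taken off. For the heavy chains the ratio was highest in LT-HSCs and lowest in MPPs, with H2-K1 at 1.53, 1.16 and 0.75 and H2-D1 at 1.50, 1.25 and 0.81. B2m varied less, at 1.65, 1.40 and 1.43. The 2 heavy chain genes kept nearly the same proportion to each other in every library, with a per-kb ratio of H2-K1 to H2-D1 of 0.728 to 0.830.

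**Figure D3:**
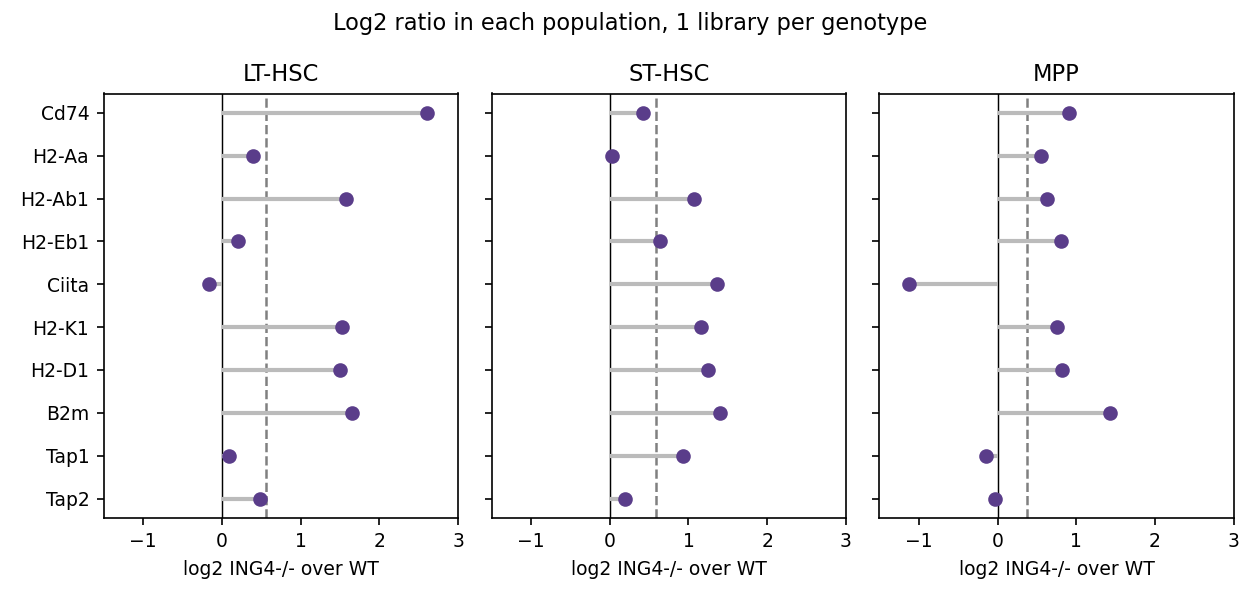
Log2 ratio of ING4-/- to WT (TMM-normalized CPM, prior count 2) for each of the 10 genes in LT-HSCs, ST-HSCs and MPPs, with 1 library per genotype. The dashed line is the median of the 9673 well-counted genes (0.55, 0.59 and 0.37); Cd74 is far beyond it in LT-HSCs only.

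Tap1 and Tap2, the paired subunits of the peptide transporter, overlapped between genotypes and were not called. Tap1 had 1518, 1337 and 2052 counts in WT and 5327, 8706 and 6171 in ING4-/- libraries (144 to 201 against 170 to 275 CPM), a difference of 0.31 ± 0.25 (SE, edgeR, adjusted p = 0.323). Tap2 had 1685, 2223 and 3666 counts in WT and 7797, 8675 and 11968 in ING4-/- libraries (177 to 360 against 249 to 353 CPM), a difference of 0.17 ± 0.29 (SE, edgeR, adjusted p = 0.633). Tap2 was higher in MPPs than in LT-HSCs in both genotypes.

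On the scale of CPM per kb of exon, which allows levels to be compared between genes, the order in WT was B2m (1259), H2-D1 (812), H2-K1 (630), Tap2 (68.5), H2-Ab1 (39.3), Tap1 (30.7), Cd74 (22.5), H2-Aa (16.5), H2-Eb1 (14.5) and Ciita (1.43), as means of 3 libraries. Neighbours overlapped in their library ranges for H2-D1 and H2-K1, Tap2 and H2-Ab1, H2-Ab1 and Tap1, and H2-Aa and H2-Eb1. In the ING4-/- libraries the order was B2m (3556), H2-D1 (1849), H2-K1 (1402), H2-Ab1 (83.6), Tap2 (77.3), Cd74 (74.4), Tap1 (38.2), H2-Aa (21.1), H2-Eb1 (20.5) and Ciita (1.55). There Cd74 ranged from 28.5 to 156 and overlapped Tap2 and Tap1, so its place in the order depended on the population. Summed per kb, the 2 heavy chain genes exceeded the 3 class II chain genes 17.9 to 22.4 times in WT libraries and 24.2 to 29.8 times in ING4-/- libraries; with the background taken off, the genotypes overlapped (19.7 to 25.6 and 24.2 to 29.9 times).

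Exonic length moved with the fold change in these data, and its part in the results was not tested. Among the 9673 well-counted genes, the quintile with the shortest exons (up to 2071 bases) had a median log2 fold change of 1.24, and the quintile with the longest (6932 bases or more) had -0.44. The 1000 of them closest in length to B2m (860 bases) had a median of 1.39, beside 1.50 for B2m itself. For H2-D1 and H2-K1 the medians were 0.92 and 0.90, which the genes exceeded by 0.27 and 0.26. For H2-Ab1 (1637 bases) the median of 1.19 was above its own 1.09. The differences of H2-Aa and H2-Eb1 from genes of their length were -0.75 and -0.82. Cd74 (1410 bases) lay above genes of its length by 1.32 in LT-HSCs, and its differences in ST-HSCs and MPPs were -0.93 and -0.20. No H2-K1, H2-D1 or B2m ratio was more than 0.59 from the median of its length in any population.

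**Figure D4:**
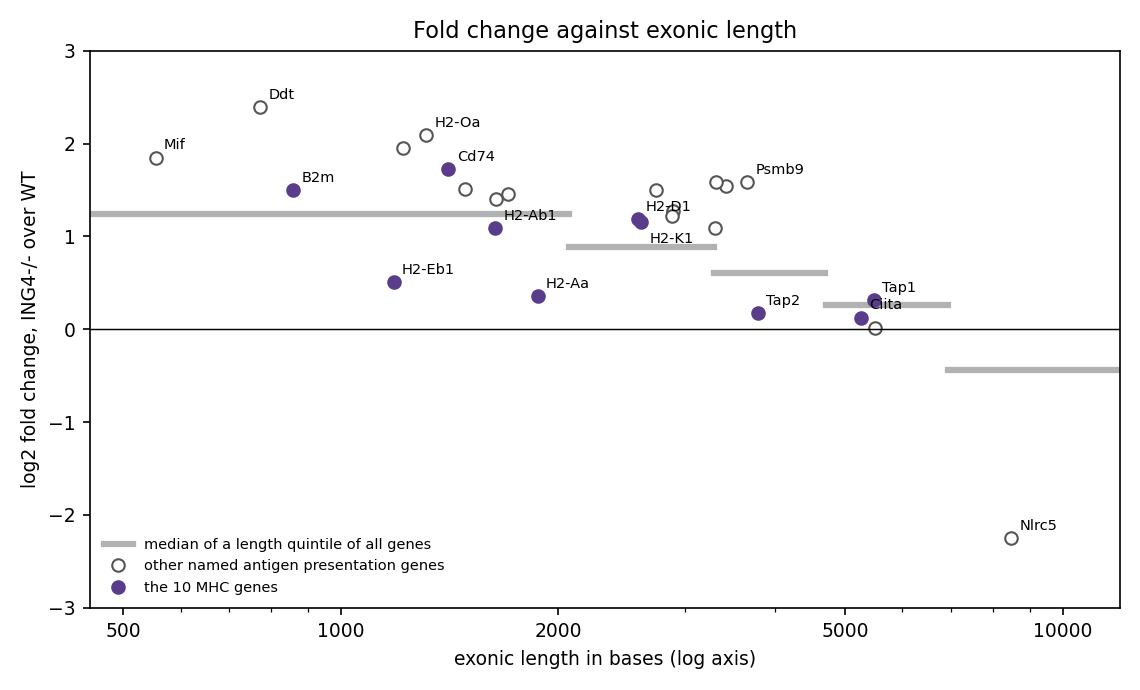
Log2 fold change over 6 libraries (edgeR) against exonic length on a log axis for the 10 genes (filled) and other named antigen presentation genes with over 3 counts in an ING4-/- library (open; H2-Bl, at -5.07, is off the scale). Grey bars are the medians of length quintiles of the 9673 well-counted genes, from 1.24 to -0.44. Most open points, named mainly because they were called, lie above the median of the 1000 genes nearest in length, by up to 1.01 (Ddt). H2-Aa and H2-Eb1 differ from it by -0.75 and -0.82, and Nlrc5 (-2.25) lies well under.

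Reads of the heavy chain genes can be shared with near-identical class I genes. Of all 50-base stretches of their transcripts, 9.63% of H2-K1 (mostly with H2-Q10, H2-D1, H2-Q7 and H2-Q4) and 12.8% of H2-D1 (mostly with H2-Q1, H2-K1, H2-Q7 and H2-Q6) occurred in other genes, against 0% for Cd74, H2-Ab1, H2-Eb1, Ciita and B2m and under 1% for the other members. Some genes also overlap others, and the strand setting of the counting is not given in the sources used here: genes on the opposite strand cover 18.5% of the exonic bases of Tap2, 3.87% of Tap1 and 2.11% of Ciita. The counts of all class I genes of the H2 family summed gave a log2 fold change of 1.08 (edgeR, adjusted p = 0.00078).

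Around the 10 members, 64 other antigen presentation genes were listed by role, and 63 were tested: 16 were called higher, 9 lower and 38 not called. Over all genes tested the shares were 7.98% higher and 56.7% lower, and they stand beside these counts and the count of each list below. Those 31001 genes had a median log2 fold change of -6.85, so they are not matched to the listed genes in count level or length. In the same fit the length quintiles of well-counted genes had medians from 1.24 (shortest) to -0.44 (longest). The immunoproteasome, which trims peptides for class I, was the list with every member called higher (5 of 5, median 1.46; 4 of 5 by DESeq2), against 7.98% of all genes. Psmb9 had 966, 1098 and 1290 counts in WT and 7388, 13867 and 12336 in ING4-/- libraries (1.58 ± 0.26 SE, edgeR, adjusted p = 0.00128). Psmb8 rose by 1.50 and Psmb10 by 1.46. Over genes of like length Psmb9 stood higher by 0.91, Psmb8 by 0.64 and Psmb10 by 0.30.

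The class I peptide loading list had 2 of 7 called higher and 0 lower (median 0.91), namely Tapbp, which bridges TAP and class I (1.09), and the chaperone Calr (1.22). These calls were lost in 6 and 5 of 14 alternative fits, at adjusted p-values up to 0.217 and 0.314. Of 15 other class I genes tested, 2 were called higher and 6 lower (median 0.13). H2-T22 (1.55) and H2-T23 (1.28), both nonclassical heavy chain genes, were the higher ones, and H2-T23 lost its call in 6 of 14 alternative fits. H2-T3 and H2-M2 were at 0 in all ING4-/- libraries and at least 249-fold and 242-fold lower against a floor of 3 counts per library, from WT counts of 166 to 313 and 173 to 276, where the background would give 49.4 to 62.0 and 28.1 to 35.3. H2-Bl had 40, 16 and 10 counts in WT, where the background would give 37.7, 38.3 and 30.4, and 2, 4 and 0 in ING4-/- libraries, so its WT level was not above background. The same held for H2-Q10 (46, 31 and 12 against 97.4, 98.9 and 78.7), and H2-Q1 was near it (85, 83 and 46 against 64.1, 65.1 and 51.8). H2-T24, also called lower, was above background in WT (292, 257 and 251 counts against 48.9, 49.6 and 39.5). It had 361, 390 and 474 counts in ING4-/- libraries and a log2 fold change of -1.13 ± 0.42 (SE, edgeR, adjusted p = 0.0458). H2-Q10, H2-Q1 and H2-T24 were named after their values were seen.

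Nlrc5, the transactivator of class I genes and the counterpart of Ciita, was called lower while H2-K1, H2-D1 and B2m were called higher. It had 814, 685 and 707 counts in WT and 651, 382 and 516 in the ING4-/- libraries, whose median total was 4.70 times that of the WT libraries. The CPM values were 85.7, 73.7 and 69.4 against 20.8, 12.1 and 15.2, with no overlap. The log2 fold change was -2.25 ± 0.34 (SE, edgeR quasi-likelihood test, adjusted p = 0.000848), and the call was kept in all 14 alternative fits. Background would supply 154 to 193 of its WT counts, and taking the background off gave -2.66 (adjusted p = 0.00216). Genes of its length (8493 bases) had a median of -0.20.

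Of the 10 class I and interferon-gamma regulators 2 were called higher and 1 lower (median 0.12). Ifngr2, a chain of the interferon-gamma receptor (1.58), and Socs1, a feedback inhibitor of its signal (1.96), were called higher. In WT, however, Socs1 had 19 to 42 counts, where the background would give 22.1 to 27.7. Ifngr2 had 107, 105 and 224 counts there, where the background would give 74.2, 75.4 and 60.0. These calls were lost in 4 (Ifngr2) and 5 (Socs1) of 14 alternative fits. Of the 7 class II promoter factors 0 were called by edgeR (median 0.18), with 0 under an unadjusted p of 0.05, and DESeq2 called 1 lower (Creb1, which binds the X2 box, -1.05, adjusted p = 0.0123, named after its value was seen). Rfx5, the X box binding subunit, had 337, 152 and 212 counts in WT and 1644, 386 and 294 in ING4-/- libraries (0.01 ± 0.77 SE, edgeR, adjusted p = 0.989), with the highest CPM in the ING4-/- LT-HSC library (52.5) and the lowest in ING4-/- MPPs (8.67).

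Of 13 other class II genes, 3 were called higher and 2 lower (median 0.69). H2-DMa and H2-DMb1, the chains of the H2-M editor that exchanges the CD74 fragment for peptide, were at 1.41 ± 0.28 (SE, edgeR, adjusted p = 0.00308) and 1.51 ± 0.45 (adjusted p = 0.0192). H2-DMb1 had 351, 380 and 646 counts in WT and 6548, 3931 and 2347 in ING4-/- libraries, and like Cd74 it was highest in the ING4-/- LT-HSC library. H2-DMa was lowest there among the ING4-/- libraries (252, 282 and 412 CPM). H2-Oa, a chain of the H2-O inhibitor of H2-M, was at 2.09 ± 0.55 (SE, edgeR, adjusted p = 0.0118). It had 53 to 143 counts in WT, of which 23.8 to 29.9 would be background, and was highest in MPPs among the ING4-/- libraries (37.6, 25.4 and 51.4 CPM). H2-Eb2 and H2-Ea-ps were at 0 in all ING4-/- libraries, at least 43.8-fold and 66.6-fold lower, but the 29 to 46 WT counts of H2-Eb2 were near the 40.0 to 50.2 that background would give. H2-DMa lost its call in 2, H2-DMb1 in 7 and H2-Oa in 3 of 14 alternative fits.

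Among 6 partners of CD74, 2 were called higher and 0 lower (median 1.29). Mif, the cytokine ligand of CD74, had 1372, 2095 and 2431 counts in WT and 17103, 28407 and 25369 in ING4-/- libraries (1.85 ± 0.27 SE, edgeR, adjusted p = 0.000817). Ddt, its homologue, had 126, 113 and 153 in WT and 2377, 2117 and 2355 in ING4-/- libraries (2.39 ± 0.30 SE, edgeR, adjusted p = 0.000657). Both are short transcripts, and genes of like length had medians of 1.38 and 1.39. In the library in which Cd74 was highest, ING4-/- LT-HSC, Mif was lowest among ING4-/- libraries (546 CPM against 898 and 748), and Ddt varied little (75.9, 66.9 and 69.4 CPM).

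**Figure D5:**
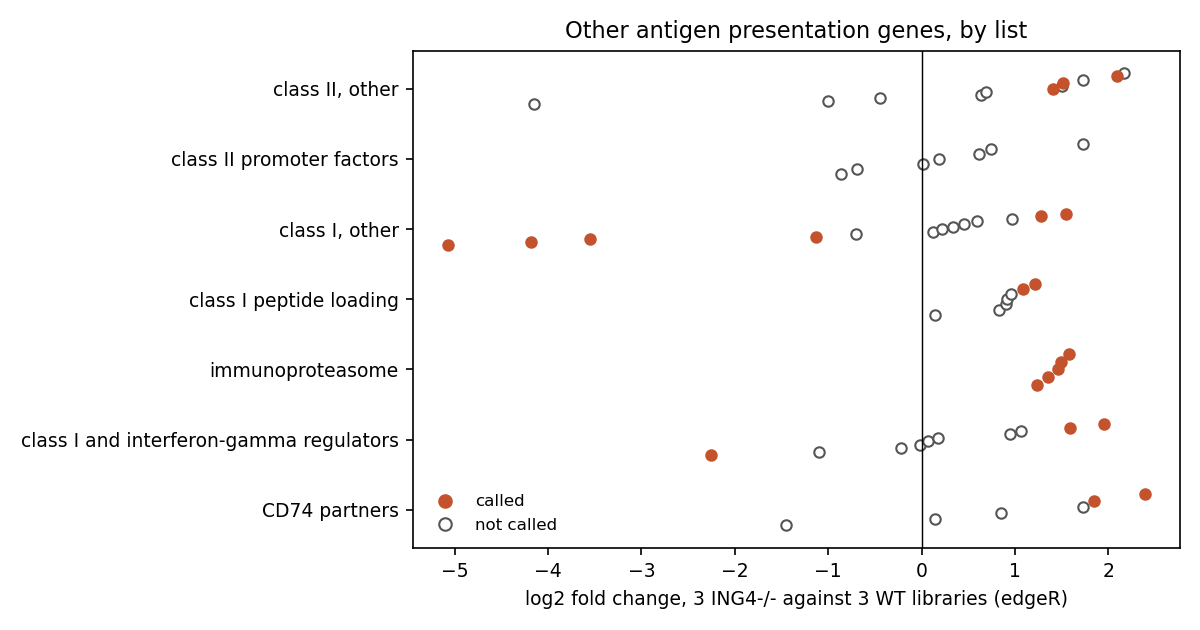
Log2 fold change over 6 libraries (edgeR) of the other antigen presentation genes in 7 lists, 1 point per gene, filled when called. Genes at 0 in all ING4-/- libraries are left out; the 5 immunoproteasome genes are all called higher, and Nlrc5 (-2.25) is the called point on the left of the regulator list.

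The genes whose log2 CPM was most like that of Cd74 over the 6 libraries, out of 9016 well-counted protein-coding genes, were Tifa (Pearson r = 0.993), Arl13b (0.992), Mrrf (0.991), Trib3 (0.989) and Bdh2 (0.984). Among the members r was 0.81 for H2-Ab1, 0.79 for H2-K1 and H2-Aa, 0.78 for H2-D1, 0.73 for B2m, 0.70 for H2-Eb1, and -0.05, -0.09 and -0.15 for Tap2, Tap1 and Ciita. These are descriptions over 6 points that share genotype and depth, with 1 library far from the rest.

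Markers of the cells best known for class II were checked beside these results, and their part in the results was not tested. In a bulk library, fewer cells of a type and less RNA per cell cannot be told apart. Summed over 12 B cell markers, the WT libraries held 142 to 154 CPM and the ING4-/- libraries 90.3 to 134. In each ING4-/- library 8 to 10 of the 12 genes were at 0. Cd79a, Ms4a1, Pax5, Ebf1 and Blnk were at 0 in all 3 ING4-/- libraries, and Igkc was at 0 in every library of both genotypes. The WT counts of Pax5 (58, 35 and 78) were under what background would give (198, 201 and 160), as were those of Cd79a. Cd79b was the most abundant in ING4-/- libraries (112, 80.6 and 64.6 CPM) and, like Cd74, was highest in LT-HSCs, in a smaller step; it was called higher than in WT (1.60, edgeR, adjusted p = 0.00269). Ighm came next (0, 9.71 and 65.3 CPM) and was highest in MPPs. Summed over 12 dendritic cell markers, the range was 327 to 366 CPM in WT and 209 to 320 in ING4-/- libraries, with 5 to 9 genes at 0 in each ING4-/- library and Itgax, Cd209a and Siglech at 0 in all 3, while Tcf4 (170, 121 and 110 CPM) and Bst2 (146, 72.6 and 116 CPM) made up most of the sum and were highest in LT-HSCs. Summed over 12 monocyte and macrophage markers, the range was 494 to 536 CPM in WT and 788 to 906 in ING4-/- libraries, with Csf1r and Ccr2 at 0 in all ING4-/- libraries. Lyz2 made up most of that sum (871, 812 and 762 CPM in ING4-/-, 357, 304 and 357 in WT), and Vcam1 came next (27.8, 10.1 and 0.03 CPM in ING4-/-). Background would supply 60.1% to 81.9% of the WT counts of the B cell list and 38.6% to 50.7% of the dendritic cell list. For the monocyte and macrophage list it would be 14.9% to 20.8%, and for the T and NK cell list below 24.35% to 66.17%. In the ING4-/- libraries it would supply at most 0.117% of the B cell list and less of the others. The WT and ING4-/- sums are therefore not on an equal footing, and which genotype held more of this RNA was not tested.

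The 14 stem and progenitor markers summed to 2447 to 3702 CPM in WT and 3454 to 5366 in ING4-/- libraries, among them Cd34 at 109, 237 and 714 CPM in WT and 304, 715 and 1559 in ING4-/-. Within each genotype, Cd34 was lowest in the LT-HSCs (gated CD34-), and Slamf1, which encodes CD150, was lowest in the MPPs (gated CD150-). Slamf1 was at 104, 81.3 and 33.0 CPM in WT and 111, 28.1 and 8.81 in ING4-/-. Across genotypes, where depth and background differ, Cd34 in ING4-/- LT-HSCs was above that in WT ST-HSCs (gated CD34+). Slamf1 was lower in the CD150+ ING4-/- ST-HSCs than in the CD150- WT MPPs, where background would supply 33.2% of its count. Cd48 was at 5.27, 16.6 and 36.9 CPM in WT and 0, 34.1 and 127 in ING4-/-, although all were gated CD48-. Slamf1 and Cd48 were named after their values were seen. The granulocyte list summed to 113 to 330 CPM in WT and 368 to 664 in ING4-/- (Prtn3 and Mpo most abundant over the ING4-/- libraries), the T and NK cell list to 98.0 to 201 and 82.8 to 321 (Nkg7 and Klrb1c most abundant over the ING4-/- libraries), and the erythroid list to 1181 to 1366 and 3460 to 4136 (mostly Car2, with Hbb-bt next over the ING4-/- libraries together). Among the ING4-/- libraries the dendritic cell sum (320, 209 and 248 CPM) and the monocyte and macrophage sum (906, 849 and 788 CPM) were highest in LT-HSCs, as Cd74 was, resting on Tcf4 and Bst2 and on Lyz2, with 9 and 8 of the 12 genes of each list at 0 in that library, the most of the 3, whereas the B cell, granulocyte, T and NK cell and erythroid sums were not.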

How the data were processed

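The authors deposited raw counts of reads per gene for 6 libraries, made by a sequencing company; the labels name the build mm10, and the aligner, the counting tool and the strand setting are not given in the sources used here. The deposited counts carry no normalization. Genotype came from the genotype label of each sample and population from its title. Of 49315 gene identifiers, 49056 matched GENCODE M21 on GRCm38, 44858 of them with the same start and end, which gave symbols and exonic lengths. The members and all gene lists were chosen with earlier results of these data known. Counts were fitted with edgeR 4.0.16 (R 4.3.3, TMM factors, filterByExpr by genotype, quasi-likelihood test, genotype only, following the study's grouping), on 6 libraries and on the ST-HSC and MPP libraries, with Benjamini-Hochberg adjustment over all genes tested. Log2 CPM used a prior count of 2. DESeq2 1.42.0 (Wald test), other scalings, filters, background subtraction and leaving out libraries were alternatives. Taking off the median of the 1000 genes nearest in length was added after seeing the data. Deviations from genotype means correlated within LT-HSCs (0.143), ST-HSCs (0.110) and MPPs (0.121) across genes, so the population was also fitted as a block. On simulated counts for the 6 libraries, 200 of 200 changed genes were recovered with 9 false calls among 35174 genes. Apart from the planted changes, each simulated gene had the same mean in every library, with no WT background and no difference between populations. The planted changes were also larger than those fitted for the members, so these figures do not carry over to the calls given here. No 2 libraries of a genotype agreed within sampling noise (lowest chi-square per degree of freedom 15.4). Named genes were all members, Ing4, up to 3 called genes per direction and list, Nlrc5, Rfx5, H2-DMa and Psmb8, the 2 most abundant genes of each marker list, and the 5 genes closest to Cd74; a few marker genes are not reported here. P-values measure the spread between the sorted libraries, each from pooled mice, and differences in depth leave the WT values with the larger counting error.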

Additional observations from a re-analysis of the deposited data

Results flagged for a closer look

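For 3 members the log2 ratio of ING4-/- to WT had different signs in different populations. In Ciita the highest and lowest ratio were 2.49 apart, from 1.36 in ST-HSCs to -1.12 in MPPs, on WT counts no higher than background in LT-HSCs and ST-HSCs and near it in MPPs. In Tap1 they were 1.08 apart, from 0.94 in ST-HSCs to -0.15 in MPPs. In Tap2 they were 0.52 apart, from 0.49 in LT-HSCs to -0.03 in MPPs. With 1 library per genotype in each population the differences between populations were not tested.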

How the results depend on the processing

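Depth and background limit these results on the WT side, where Ciita was not separable from background, and scaling sets the zero point. From 4 members called over 6 libraries, DESeq2 size factors, the DESeq2 test and protein-coding genes alone each gave 1, background subtraction gave 1 (Ciita, not one of the 4), and the filter on 10 counts in each library left 0 by edgeR (3 under an unadjusted p of 0.05; DESeq2 1). Leaving out a library gave 3 to 4, and the population block 4. From 2 in ST-HSCs and MPPs, DESeq2 size factors, the DESeq2 test and protein-coding genes alone gave 1, background subtraction gave 1 (Ciita, not one of the 2), upper-quartile scaling gave 7, the 10-count filter and the population block gave 0, and leaving out a library 0 to 3. From 25 pathway genes called, the 10-count filter and background subtraction gave 8, the block 20 and leaving out a library 19 to 29. From 7 members with a positive ratio in all populations, DESeq2 size factors gave 4, and background subtraction gave 4 that included Ciita, not one of the 7. Mif, Ddt and Nlrc5 kept their calls in all 14 refits. The causes were not tested.

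Signs turned for genes that were not called, and for H2-Ab1 against genes of like length. Over 6 libraries, with DESeq2 size factors, H2-Aa was -3e-04, Ciita -0.22, Tap1 -0.042, Tap2 -0.17 and Rfx5 -0.32. With the DESeq2 test, Ciita was -0.21, Tap1 -0.024, Tap2 -0.15 and Rfx5 -0.30. With the 10-count filter, H2-Aa was -0.15, H2-Eb1 -0.017, Ciita -0.37, Tap1 -0.19, Tap2 -0.31 and Rfx5 -0.48. With background subtracted, H2-Aa was -0.24, H2-Eb1 -0.075, Tap1 -0.39 and Tap2 -0.58. With protein-coding genes alone, Ciita was -0.22, Tap1 -0.033, Tap2 -0.16 and Rfx5 -0.33. Less the median of genes of like length, H2-Aa was -0.75, H2-Ab1 -0.11, H2-Eb1 -0.82, Ciita -0.24, Tap2 -0.47 and Rfx5 -0.29. With the block, Rfx5 was -0.37. Leaving out a library, Ciita ran from -0.38 (without ING4-/- ST-HSC) to 0.45 (without ING4-/- MPP), Tap2 from -0.062 (without WT LT-HSC) to 0.35 (without WT MPP), and Rfx5 from -1.19 (without ING4-/- LT-HSC) to 0.44 (without ING4-/- MPP).

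In the ST-HSC and MPP fit, H2-Aa was -0.078 with the 10-count filter, -0.25 with background subtracted, and -0.031 to 0.70 leaving out a library. Ciita was -0.13 with the 10-count filter, -0.011 with protein-coding genes alone, and -0.70 to 0.89 leaving out a library. Tap1 was -0.30 with background subtracted. Tap2 was -0.16 with DESeq2 size factors, -0.14 with the DESeq2 test, -0.33 with the 10-count filter, -0.69 with background subtracted, -0.20 with protein-coding genes alone, and -0.20 to 0.29 leaving out a library.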
